A study of Mus musculus with 20 samples.

Results

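The hearts of mice fed atorvastatin were compared with those of mice fed chow alone, using the 4 arrays titled for each group, 8 of the 20 arrays in the series. All mice were male C57BL/6J. They arrived at 6 weeks of age and were acclimated for 2 weeks. Control mice then ate a standard chow (CE-2) for 4 weeks, and the treated mice ate it with powdered tablets of atorvastatin calcium hydrate at 11.4 mg/kg/day, so that the hearts were taken at about 12 weeks of age under diethyl ether. Total RNA of the left ventricle of each animal gave 1 array, an Affymetrix whole-genome mouse array that measures most genes by several probe sets. The other 12 arrays came from mice fed pitavastatin, pravastatin or rosuvastatin at other doses. The intake of drug was calculated from food eaten, and no plasma level of drug or cholesterol was used here. The hour of collection is not given in the sources used here.

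Statins lower cholesterol by blocking an early step of the mevalonate pathway. That pathway makes cholesterol, the prenyl tails that anchor many signalling proteins to membranes, and the side chain of coenzyme Q, the electron carrier of the respiratory chain. When sterols run low, the transcription factor SREBP2 is cut free and switches on the genes of cholesterol synthesis and uptake, a response best known from liver. The adult heart burns mainly fatty acids in a dense network of mitochondria, and its metabolism follows a strong daily rhythm set by the circadian clock.

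Values are log2 of the deposited signal plus 16, called log2 signal here, and a difference is the atorvastatin mean minus the control mean on that scale. Of 45037 probe sets, the brighter 22518 were tested with limma, which pooled the spread over all 20 arrays. After Benjamini-Hochberg adjustment over all tested probe sets, 0 passed 0.05 (0.0% of those tested), and the smallest adjusted p was 0.769. An unadjusted p under 0.05 was reached by 1028 probe sets, 4.57% of those tested. Of these, 656 (2.91%) lay higher and 372 (1.65%) lower with atorvastatin. All 4 treated hearts lay above all 4 controls for 180 probe sets (0.799%) and below them for 129 (0.573%). Only 9 probe sets differed by more than 2-fold. The median 95% interval reached 0.356 to either side, so smaller differences of a typical probe set could not be told from none. Every value below is therefore a description of these 8 hearts, and no gene or gene group named here passed correction.

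The tissue matched its label. All 22 cardiomyocyte markers were above the filter, and Myh6, Actc1, Tnnt2 and Myl2, which encode the heavy chain, actin, troponin T and light chain of the ventricular sarcomere, had median log2 signals of 15.13, 15.19, 15.45 and 15.39 over the 8 arrays. The atrial genes Sln and Myl7 had medians of 5.82 and 5.81 and lay below the filter, while 6 of 10 atrial markers lay above it, among them Nppa at 12.80 and Kcnj3 at 12.32. The adipocyte gene Adipoq was at 5.27, below the filter, and 4 of 10 adipocyte markers lay above it, among them Fabp4 at 14.43 and Cidea at 9.22. Fibroblast (18 of 18), endothelial (17 of 17) and macrophage (16 of 17) markers on the array were also measured, as whole ventricle was used. In such bulk tissue, fewer cells of a type and less RNA per cell cannot be told apart.

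The arrays differed in brightness, and the treated ones more than the controls. All 8 had been scaled to one trimmed mean of 500, yet the median signal was 97.8, 80.5, 83.6 and 119 in controls 1 to 4 and 65.3, 144, 77.2 and 79.3 in the atorvastatin hearts. The brightest 1% of probe sets (450) held 26.8, 28.0, 28.0 and 28.5% of the summed signal in controls, and 21.9, 29.1, 24.5 and 32.6% in treated hearts. The treated values lay on both sides of the controls, with an SD of 4.78 points against 0.75. No difference between the groups in 9 such measures of brightness and RNA quality passed the test (exact permutation test, two-sided, p = 0.4 to 0.914, each 0.914 after Benjamini-Hochberg adjustment, where the smallest p that 4 against 4 allows is 0.0286). For single probe sets the spread was closer: the median SD among the 4 hearts of a group was 0.25 with atorvastatin and 0.23 in controls. It was 0.17 with pitavastatin, 0.19 with pravastatin and 0.23 with rosuvastatin. Whether the uneven brightness reached single genes was not tested.

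**Figure D1:**
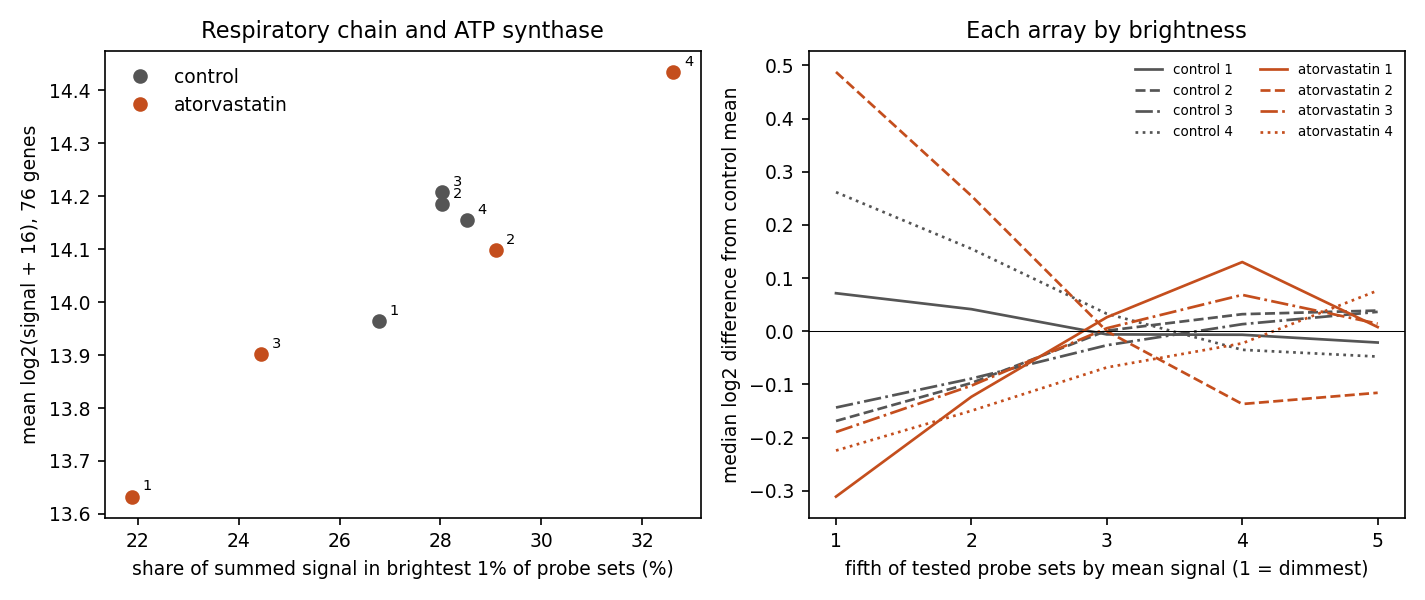
Left, the mean log2 signal of 76 genes of the respiratory chain and ATP synthase in each heart (vertical axis) against the percent of summed signal held by the brightest 1% of probe sets (horizontal axis); controls are grey, atorvastatin orange, and digits are replicate numbers. Right, for each array, the median log2 difference from the control mean in 5 equal bins of the tested probe sets ordered by mean signal: atorvastatin 2 was at 0.49 in the dimmest bin and -0.12 in the brightest, while atorvastatin 1, 3 and 4 lay lower in the dimmest.

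The difference varied with the brightness of the probe set. In the dimmest 20% of tested probe sets the median difference was -0.09, in the next 20% -0.06, and in the 3 brighter bins -0.02, 0.01 and -0.02. Over all tested probe sets 43.9% lay above 0 and the median was -0.03. Centring every array on its own median moved these to 62.7% and 0.06, while quantile normalization gave 47.2% and -0.01. With the median signal of each array as a covariate the split at an unadjusted p under 0.05 turned, with 943 higher and 1214 lower. List medians below are therefore given with their value after quantile normalization for most lists, and with the arrays whose absence moved them most.

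Cholesterol synthesis had no common direction. Of 15 measured enzymes 9 lay lower and 6 higher, with a median of -0.05 (-0.07 after quantile normalization, 0.04 after centring on medians or without atorvastatin 2, and -0.11 without control 2 or atorvastatin 3). Of the 11229 genes tested, each by its brightest probe set, 4.92% had an unadjusted p under 0.05, 3.21% on the higher and 1.71% on the lower side. Among the enzymes 2 genes did, both lower. Idi1, the isomerase that makes the building block of prenyl chains, had log2 signals of 9.12, 9.21, 9.07 and 9.24 in controls and 8.69, 9.03, 8.72 and 8.83 with atorvastatin. All treated hearts lay below all controls, a separation seen in 0.614% of genes in this direction, and the difference was -0.34 ± 0.13 (SE; limma, adjusted p = 0.964). A dimmer Idi1 probe set differed by 0.02.

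Msmo1, a C4-sterol oxidase, was at 8.10, 8.29, 8.70 and 8.81 in controls and 8.25, 8.02, 8.23 and 7.76 in treated hearts, a difference of -0.41 ± 0.16 with overlapping groups; its other probe set gave -0.58. Fdps, which makes farnesyl diphosphate, differed by -0.35 (95% interval -0.75 to 0.04). Fdft1, which takes farnesyl diphosphate into sterols, lay the other way at 0.29 (-0.04 to 0.63). Hmgcs1, an early synthase of the pathway and a standard SREBP2 target, was measured by 4 probe sets that differed by 0.05, -0.03, -0.05 and 0.04. The brightest of them had a 95% interval of -0.18 to 0.28. Sqle, squalene epoxidase, differed by -0.05 (-0.54 to 0.44), and the sterol demethylase Cyp51 by 0.17 (-0.05 to 0.40) and, at its second probe set, -0.06. None of these genes passed the test in limma.

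Genes that sense, import or export sterols had a median of 0.08, with 10 of 14 higher (0.10 after quantile normalization, 0.17 after centring on medians, 0.0351 without control 2 and 0.0359 without atorvastatin 4). Insig1, which holds the SREBP precursors in the membrane when sterols abound, differed by 0.04 (-0.24 to 0.32). Lpin1, a phosphatidate phosphatase and transcriptional coactivator, was the only gene of this list at an unadjusted p under 0.05. Its log2 signals were 12.12, 12.43, 12.36 and 12.23 in controls and 12.09, 11.69, 12.01 and 12.09 in treated hearts. The groups did not overlap, though control 1 lay just above the highest treated hearts. The difference was -0.32 ± 0.10, and -0.10 at the second probe set. Npc1, which moves cholesterol out of lysosomes, differed by 0.23 ± 0.13.

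Farther down the mevalonate pathway, Ggps1, which makes the geranylgeranyl donor for prenylation, was at 10.88, 9.94, 9.81 and 10.17 in controls and 10.85, 10.55, 10.53 and 10.57 in treated hearts. The treated hearts lay above controls 2 to 4 and below control 1, and the difference of 0.42 ± 0.17 was 0.09 to 0.16 at the other 3 probe sets. Of 11 genes of coenzyme Q synthesis 10 lay lower, with a median of -0.13 (-0.15 after quantile normalization; -0.05, -0.07 and -0.06 without control 2, control 3 or atorvastatin 2, and -0.22 without control 1). Coq9, a lipid-binding subunit of the coenzyme Q machinery, differed by -0.18 ± 0.10. The exception was Coq10b, which binds finished coenzyme Q: 12.51, 12.08, 12.21 and 12.54 in controls against 12.73, 12.52, 12.81 and 13.34 in treated hearts, with atorvastatin 4 the highest. Its difference was 0.52 ± 0.18 (limma, adjusted p = 0.964) and 0.07 at a dim second probe set.

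Among lists of at least 13 measured genes, each by its brightest probe set, the output genes of the circadian clock had the highest median. It was 0.16 with 10 of 13 higher, while the 13 genes of the core loop had a median of -0.007 with 6 higher. By every tested probe set this order turned. The output genes then had a median of 0.07 (16 of 28 probe sets higher) and the core loop 0.12 (15 of 24). In the clock, the activator pair of Clock and Arntl (Bmal1) switches on the Per, Cry and Nr1d genes through E-boxes. Nr1d1 and Nr1d2 (the REV-ERB receptors) repress Arntl and Nfil3. Dbp, Tef and Hlf form the PAR bZIP family, which activates daily output genes through D-boxes, and Nfil3 represses at the same D-box. Of 26 measured genes of the core loop and its output, 16 lay higher and 10 lower, with a median of 0.13 (0.12 after quantile normalization, 0.22 after centring on medians, 0.05 without control 3 and 0.08 without control 4). At an unadjusted p under 0.05 were 5 higher and 1 lower, against 3.21% and 1.71% of all genes. Groups did not overlap for 3 higher and 1 lower, against 0.73% and 0.614%.

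Promoter sequence is shown for 3 clock genes whose brightest probe set lay higher, 1 for each motif through which the loop is wired. The windows are the 250 bases before a transcript start listed in RefSeq on build GRCm38.p6 (for Per3 not the outermost one, so that part of its window lies inside the gene), written in the direction of transcription, with matches on either strand in capitals. Per3 lies at chr4:151044666-151044915 on the minus strand and has the D-box TTATGTAA at 2 places, with first bases at -205 and -158 from the start. Tef, at chr15:81802423-81802672 on the plus strand, has the E-box CACGTG at -127. Nr1d2, at chr14:18239107-18239356 on the minus strand, has the receptor core AGGTCA at -77.
Per3: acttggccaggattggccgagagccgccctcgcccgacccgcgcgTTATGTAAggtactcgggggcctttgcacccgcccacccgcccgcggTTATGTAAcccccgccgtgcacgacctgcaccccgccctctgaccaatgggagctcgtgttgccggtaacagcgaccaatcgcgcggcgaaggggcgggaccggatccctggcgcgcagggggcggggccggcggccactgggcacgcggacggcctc
Tef: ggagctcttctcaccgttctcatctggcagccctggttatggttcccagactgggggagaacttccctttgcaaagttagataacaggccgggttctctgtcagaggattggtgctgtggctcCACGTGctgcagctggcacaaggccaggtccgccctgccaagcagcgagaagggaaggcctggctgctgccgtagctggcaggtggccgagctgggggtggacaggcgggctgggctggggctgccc
Nr1d2: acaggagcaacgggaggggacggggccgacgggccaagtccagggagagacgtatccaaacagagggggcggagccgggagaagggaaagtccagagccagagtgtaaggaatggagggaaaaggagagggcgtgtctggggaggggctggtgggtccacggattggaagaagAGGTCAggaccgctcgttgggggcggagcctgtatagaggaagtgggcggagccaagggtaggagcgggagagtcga
The D-box (TTATGTAA or TTACGTAA, both strands) was found in 0.931% of 32851 windows of this length, the E-box in 6.02% and the receptor core in 14.0%. The 38 windows of 26 listed clock genes held the D-box in 1, that of Per3, the E-box in 7 and the receptor core in 6. These matches are a description of sequence and not sites measured here.

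Dbp lay highest of the clock genes. Its brightest probe set was at 10.18, 10.52, 10.53 and 11.14 in controls and 11.14, 11.41, 12.07 and 11.77 in treated hearts. The treated hearts lay above controls 1 to 3, and atorvastatin 1 was level with control 4. The difference was 1.00 ± 0.34 (95% interval 0.30 to 1.71), or about 2-fold, with an adjusted p in limma of 0.964; a dimmer probe set gave 0.49. Tef differed by 0.25 ± 0.10 (a dimmer probe set gave -0.20) and Hlf, with separated groups, by 0.22 ± 0.13 and 0.31 at its second probe set.

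Nr1d2 had the smallest p of the clock genes. Controls were at 12.41, 12.04, 11.96 and 12.26 and treated hearts at 12.65, 12.62, 12.70 and 12.52. The groups did not overlap, and the treated hearts lay close together, with an SD of 0.07 against 0.20. The difference was 0.46 ± 0.11 (limma, adjusted p = 0.769) and ran from 0.39 to 0.55 over the other settings and left-out arrays. Its partner Nr1d1 differed by -0.08 ± 0.16. Per3, a period protein of the repressor arm, was at 9.52, 9.14, 9.22 and 9.31 in controls and 9.57, 9.52, 9.98 and 9.87 in treated hearts. Atorvastatin 2 and control 1 lay at the same level after rounding, and the others were apart, with a difference of 0.44 ± 0.16. Per1 was dim and differed by 0.19 (-0.50 to 0.88). Cry2, the partner of the period proteins, differed by 0.21 ± 0.11. Wee1, a mitotic kinase under clock control, differed by 0.36 at one probe set and -0.04 at the other. Tspan4, a listed output gene, differed by 0.40 ± 0.16.

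Arntl and Nfil3 lay on the lower side. Arntl was at 9.37, 9.13, 9.16 and 8.97 in controls and 9.10, 8.67, 8.37 and 8.68 in treated hearts, with only atorvastatin 1 inside the control range, and differed by -0.46 ± 0.22. Nfil3 was at 9.26, 9.44, 9.74 and 8.96 in controls and 8.74, 8.28, 8.62 and 8.46 in treated hearts. No treated heart reached the controls, and the difference was -0.82 ± 0.27 (95% interval -1.40 to -0.25; limma, adjusted p = 0.964).

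The other statin groups share these controls, so their differences are given only side by side. Dbp differed from control by 0.40 in mice fed pitavastatin, 0.61 for pravastatin, 0.86 for rosuvastatin and 1.00 for atorvastatin. Nfil3 differed by -0.26, -0.59, -0.32 and -0.82 in the same order, Arntl by -0.12, -0.21, -0.18 and -0.46, and Nr1d2 by -0.0021, 0.38, 0.29 and 0.46. A test that leaves the controls out set atorvastatin against the mean of the other 3 statins. It gave 0.38 ± 0.28 for Dbp, -0.43 ± 0.22 for Nfil3, 0.23 ± 0.09 for Nr1d2 and 0.34 ± 0.13 for Per3 (limma, adjusted p = 0.86, 0.833, 0.833 and 0.833).

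**Figure D2:**
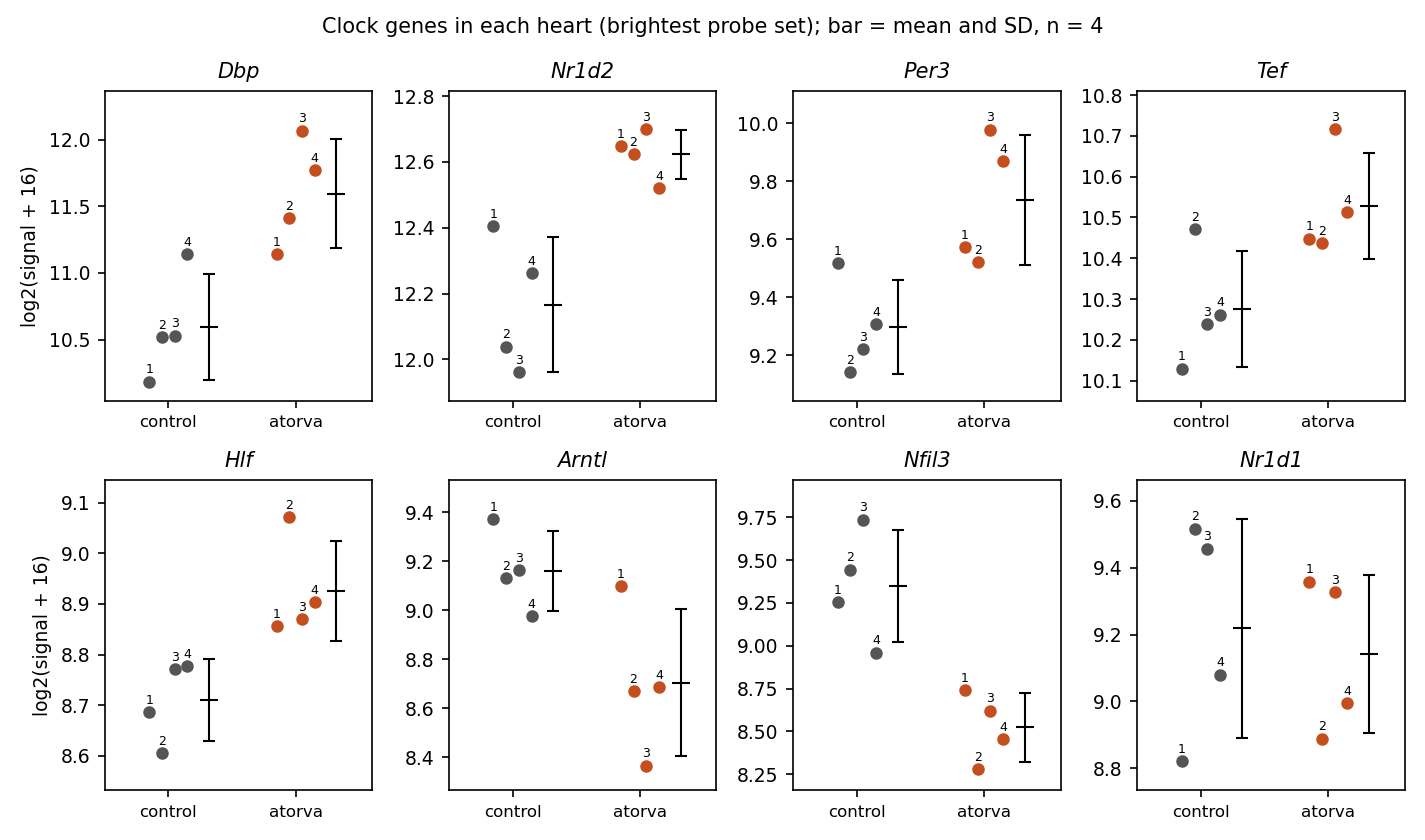
Log2(signal + 16) of 8 clock genes in each heart, by their brightest probe set; points are hearts labelled by replicate number (controls grey, atorvastatin orange) and bars are the mean and SD of 4. Groups are apart for Nr1d2, Per3, Hlf and Nfil3, touch for Dbp, and overlap for Tef, Arntl and Nr1d1.

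Genes of the respiratory chain and ATP synthase lay lower by a small and nearly uniform amount. Of 76 measured genes 74 lay lower, with a median of -0.12, and 0 reached an unadjusted p under 0.05. All 33 genes of complex I, 4 of complex II, 9 of complex III and 16 of ATP synthase lay lower. Complex IV had 12 of 14, the exceptions including a dim probe set of Cox7c at 0.35. Values for single genes were -0.26 ± 0.13 for Ndufa10 and -0.27 ± 0.14 for Ndufa8 (both of complex I), -0.17 ± 0.13 for Sdhb of complex II and -0.23 ± 0.13 for the cytochrome Cyc1. Uqcrfs1, the iron-sulphur protein of complex III, differed by -0.20 ± 0.12, the haem farnesylating enzyme Cox10 by -0.28 ± 0.16, and Atp5g1, a ring subunit of ATP synthase, by -0.19 ± 0.19. The other tested probe sets of Cox10 gave -0.29 and 0.34, on both sides of control.

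The hearts did not share this shift. The mean log2 signal of the 76 genes was 13.96, 14.19, 14.21 and 14.16 in controls and 13.63, 14.10, 13.90 and 14.43 in treated hearts. Atorvastatin 1 and 3 lay below every control, atorvastatin 2 within them and atorvastatin 4 above them. In atorvastatin 1, 68 of the 76 genes lay below all controls, and in atorvastatin 4, 61 lay above all. Control 1 stood apart among its own group in the same way, with 62 genes below the other 3 controls. The order of the 4 treated hearts was that of their share of signal in the brightest 1% of probe sets, and 73 of the 76 genes were in the brightest 20%. Some of these genes, such as Cox6a2, are themselves in the brightest 1% by mean signal. The 2 measures are therefore not independent, and the shared order is partly built in. Its cause was not tested. Quantile normalization brought the median to -0.03 with 51 of 76 lower, and centring on medians also to -0.03. Without atorvastatin 1 the median was 0.02, and without atorvastatin 4 it was -0.26.

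Other genes of energy metabolism followed the same pattern, with a few exceptions. In glycolysis and glucose uptake 14 of 17 genes lay lower (median -0.14, or -0.09 after quantile normalization, -0.08 without atorvastatin 1, -0.09 without control 3 and -0.26 without atorvastatin 4). Pkm, pyruvate kinase, was at 13.18, 13.50, 13.59 and 13.40 in controls and 13.12, 13.03, 13.21 and 13.41 in treated hearts, a difference of -0.23 ± 0.09 with atorvastatin 4 in the middle of the controls. Pfkp, a phosphofructokinase, differed by -0.26 ± 0.11 and Ldha, lactate dehydrogenase, by -0.22 ± 0.12. In the tricarboxylic acid cycle 17 of 21 lay lower (median -0.09, -0.0017 after quantile normalization and 0.0022 after centring on medians, 0.0052 and -0.04 without atorvastatin 1 or 3, and -0.19 without atorvastatin 4), among them Suclg1 of succinyl-CoA ligase at -0.19 ± 0.09. Pdk1, a kinase that shuts the pyruvate dehydrogenase gate, lay on the other side at 0.23, 0.27 and 0.25 in its 3 brighter probe sets and -0.06 in the dimmest.

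Of 21 genes of fatty acid oxidation 19 lay lower (median -0.10, -0.05 with 13 of 21 lower after quantile normalization, but 0.03 without atorvastatin 1, -0.06 without control 2 or control 3 and -0.22 without atorvastatin 4), and Echs1, the enoyl-CoA hydratase, lay lowest at -0.30 ± 0.14. Cpt1a, the isoform of the mitochondrial carnitine gate that is commoner in liver and fetal heart, went the other way. It was at 10.86, 9.94, 9.47 and 10.14 in controls and 11.04, 10.22, 10.33 and 10.71 in treated hearts. The treated hearts lay above controls 2 to 4, with control 1 among them, and the 3 probe sets gave 0.48, 0.51 and 0.39. Without control 1 the brightest gave 0.73.

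Targets of fasting and PPAR alpha were split, 7 higher and 7 lower (median 0.03, -0.05 without control 4 and 0.12 without control 2). Txnip, a brake on glucose uptake that responds to sugar and fasting, was at 13.71, 13.77, 12.91 and 12.45 in controls and 13.45, 14.14, 13.69 and 13.80 in treated hearts. Controls 3 and 4 were the low ones, and controls 1 and 2 lay within the treated range. The probe sets gave 0.56 ± 0.26 and 0.64. Ucp3, a mitochondrial carrier that fasting induces, differed by 0.39 ± 0.31. Against the mean of the other statins Txnip differed by 0.63 ± 0.21, Ucp3 by 0.71 ± 0.26 and Cpt1a by 0.45 ± 0.18 (limma, adjusted p = 0.833 for each).

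Alas1, which starts haem synthesis and is itself a PGC-1 alpha and clock target, had the lowest median difference among genes with at least 2 probe sets at an unadjusted p under 0.05 and all on one side. Its brightest probe set was at 11.37, 12.38, 13.07 and 12.79 in controls and 11.77, 11.09, 11.75 and 12.04 in treated hearts. Control 1 lay among the treated hearts and the other controls above them. The 2 probe sets differed by -0.74 ± 0.31 and -0.65. Slc25a5, an ADP/ATP carrier of the inner membrane, lay lower at all 8 of its probe sets, from -0.34 to -0.16.

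Cardiomyocyte genes as a list lay lower (20 of 22, median -0.12), moving with the brightest probe sets: after quantile normalization the median was -0.03, and it was 0.06 without atorvastatin 1 and -0.28 without atorvastatin 4. Myh7, the slow myosin heavy chain that dominates before birth and in stressed mouse ventricle, lay apart from this. It was at 10.24, 10.55, 10.03 and 9.94 in controls and 10.75, 10.36, 11.28 and 10.64 in treated hearts, with only atorvastatin 2 inside the control range. The difference was 0.57 ± 0.18 against control and 0.51 ± 0.15 against the other statins (limma, adjusted p = 0.964 and 0.833). The remaining 10 genes of the fetal and stress list were mixed: Acta1, skeletal actin, had separated groups at the lower side (-0.54 ± 0.35), and the natriuretic peptide genes Nppa and Nppb differed by -0.18 and -0.32. Ccn2 and Mt2, also of this list, lay higher at 0.76 and 0.42. With Myh7 they made up its 3 higher genes at an unadjusted p under 0.05, with 0 lower, against 3.21% and 1.71% of all genes.

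Ckm, the muscle creatine kinase that buffers ATP, was at 11.90, 12.54, 12.68 and 12.29 in controls and 12.05, 11.96, 12.02 and 11.77 in treated hearts. Control 1 lay inside the treated range and the other controls above it. The difference was -0.40 ± 0.12 (limma, adjusted p = 0.873), and the second probe set gave -0.25. Nkx2-5, the cardiac homeobox factor, differed by -0.28 ± 0.14. Of 5 genes of the skeletal muscle list 4 lay lower, including Acta1 and Ckm, with a median of -0.29 (-0.48 without control 1 and -0.19 without control 3).

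Among 19 ion channel genes, 10 lay higher and 9 lower. Kcnd3, the Kv4.3 pore of the transient outward current, had separated groups: 10.63, 10.51, 10.33 and 10.34 in controls and 10.91, 10.66, 10.76 and 11.26 in treated hearts. Its difference was 0.45 ± 0.11 (limma, adjusted p = 0.769), from 0.33 to 0.59 over the other settings, and 0.34 ± 0.09 against the other statins. Kcne1, the small subunit of the slow delayed rectifier, was at 8.29, 8.76, 8.68 and 8.09 in controls and 7.78, 7.23, 8.39 and 7.86 in treated hearts. Atorvastatin 3 was within the controls, and the probe sets gave -0.64 ± 0.25 and -0.28. Smaller differences were those of Kcnj5 (0.21 ± 0.09), a channel of the muscarinic potassium current, the acid-sensitive channel Kcnk3 (-0.22 ± 0.11, and 0.01 at another probe set) and the connexin gene Gjc1 (0.30 ± 0.14). In calcium handling 15 of 18 lay lower (median -0.09, -0.04 after quantile normalization, -0.02 and -0.03 without atorvastatin 1 or 3, and -0.15 without atorvastatin 4). The exchanger gene Slc8a1 lay lowest at -0.32 ± 0.18, with -0.08 at its other tested probe set. By their brightest probe set 0 of these genes had an unadjusted p under 0.05. By every probe set 37 of 54 lay lower, and 2 higher and 1 lower had such a p, against 2.91% and 1.65% of all tested.

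**Figure D3:**
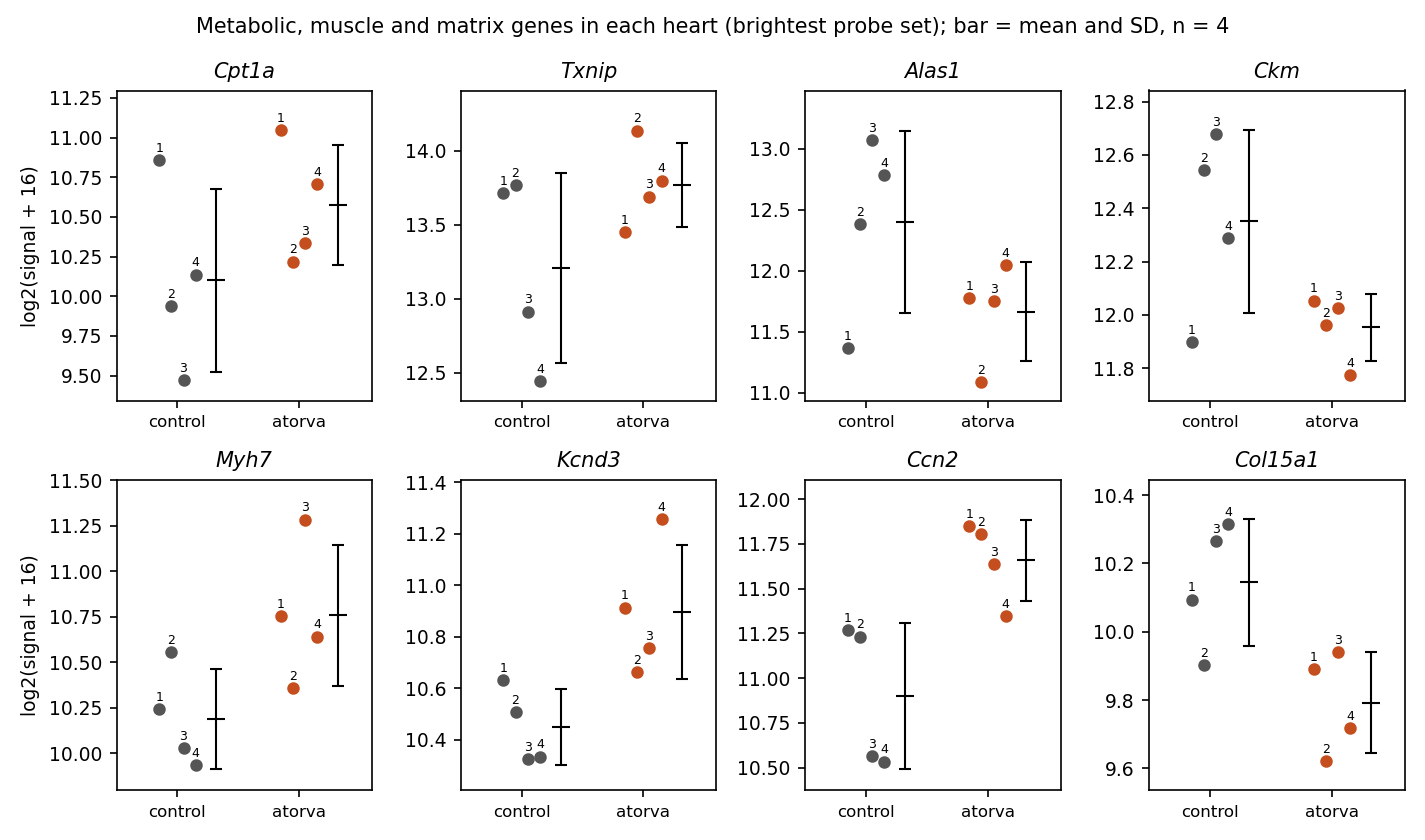
Log2(signal + 16) of 8 genes of metabolism, muscle and matrix in each heart, by their brightest probe set; points are hearts labelled by replicate number and bars are the mean and SD of 4. Control 1 lies within the treated range for Cpt1a, Txnip, Alas1 and Ckm, while Kcnd3 and Ccn2 have groups that do not overlap.

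Matrix and fibroblast genes mostly lay lower. Of 41 matrix genes 27 lay lower (median -0.09, -0.08 after quantile normalization, -0.0015 after centring on medians). At an unadjusted p under 0.05 were 5 lower and 1 higher, against 1.71% and 3.21% of all genes. Col15a1, a collagen of the muscle basement membrane, was at 10.09, 9.90, 10.27 and 10.32 in controls and 9.89, 9.62, 9.94 and 9.72 in treated hearts. Only control 2 lay below a treated heart, atorvastatin 3, and the difference was -0.35 ± 0.10 (limma, adjusted p = 0.769). Col4a1, of the vascular and muscle basement membrane, differed by -0.30 ± 0.10 and -0.19 at its 2 probe sets. The matrix median was -0.03 without atorvastatin 2 and -0.14 without atorvastatin 1. The fibrillar Col5a2 gave -0.39 ± 0.15 and -0.27, the cross-linking enzyme Loxl1 -0.27 ± 0.12 and -0.24, and Col6a3, with groups apart, -0.37 ± 0.18. Of 18 fibroblast markers 17 lay lower (median -0.12, -0.14 after quantile normalization). The proteoglycan genes Dcn and Lum differed by -0.29 ± 0.11 and -0.29 ± 0.17. Single arrays weighed on the fibroblast median: it was -0.01 without atorvastatin 2, -0.08 without control 3, and -0.19 without atorvastatin 1 or without atorvastatin 3.

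Ccn2 (connective tissue growth factor), a matricellular gene and target of YAP and TGF beta, lay opposite to the collagens. Controls were at 11.27, 11.23, 10.56 and 10.53 and treated hearts at 11.85, 11.80, 11.63 and 11.35. Controls 1 and 2 came closest, and no treated heart reached down to them. The difference was 0.76 ± 0.24 (95% interval 0.25 to 1.27; limma, adjusted p = 0.964) and ran from 0.64 to 0.88 over the other settings. Thbs2, a thrombospondin of the same matricellular class, gave 0.41 ± 0.12, 0.22 and 0.81 at its 3 probe sets, with atorvastatin 3 and 4 just below control 1 at the brightest (10.07 and 10.04 against 10.12).

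Markers of other cell types lay on both sides of control. Endothelial markers had 12 of 17 higher (median 0.05 with and without quantile normalization; 0.02 without control 4, 0.01 without atorvastatin 3, and 0.11 without control 2 or atorvastatin 4), with the VEGF receptor gene Flt1 at 0.32 ± 0.12, -0.10 and 0.27 over 3 probe sets. Nos3 and Klf2, the nitric oxide synthase and flow-sensing factor often studied with statins, differed by -0.10 (-0.46 to 0.25) and 0.16 (-0.18 to 0.50). Smooth muscle and pericyte markers had 9 of 13 higher (median 0.05, 0.09 after quantile normalization), but 4 of 13 without control 2 (median -0.02), and the median was 0.11 without control 1, 0.03 without control 3 and 0.02 without atorvastatin 1. Tpm2 was at 0.40 ± 0.17, with 1 of its 4 tested probe sets at -0.40, and Tagln at 0.42 ± 0.26. Smtn and Cspg4 of the same list lay lower, at -0.34 and -0.39. Macrophage markers had 10 of 16 lower (median -0.06, but 0.03 after centring on medians and 0.05 without atorvastatin 2, and -0.18 without atorvastatin 1 and -0.13 without control 1). Of 15 epicardial markers on the array 4 were bright enough to test, and all 4 lay higher (median 0.23), Krt18 at 0.33 ± 0.24 and Wt1 at 0.26 ± 0.19. The globin genes Hbb-b2 and Hba-a2 differed by -0.67 ± 0.27 and -0.30 ± 0.11. The part of residual blood in the other differences was not tested.

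Ighm, the immunoglobulin mu heavy chain, was at 8.21, 8.25, 8.59 and 8.06 in controls and 9.15, 9.11, 8.76 and 9.03 in treated hearts. The groups did not overlap, and the difference of 0.74 ± 0.17 had one of the smallest p values among listed genes (limma, adjusted p = 0.769). Its dimmer probe sets gave -0.38 and -0.72, so the probe sets of this gene disagreed in direction. Dbh, which makes noradrenaline in sympathetic neurons, had separated groups at 8.39, 8.54, 8.58 and 8.09 in controls and 7.82, 7.83, 7.53 and 7.73 in treated hearts, with -0.67 ± 0.19 and -0.31 at its 2 probe sets.

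Genes that regulate transcription lay slightly higher. By their brightest probe set 47.2% of all genes lay above 0. Of 27 coactivators and chromatin regulators 19 lay higher (median 0.08 with and without quantile normalization, 0.17 after centring on medians and 0.14 without atorvastatin 2). At an unadjusted p under 0.05 were 6 higher and 0 lower, against 3.21% and 1.71% of all genes. Kmt2a, a histone H3 lysine methyltransferase, was at 9.05, 9.23, 8.89 and 8.89 in controls and 9.39, 9.34, 9.48 and 9.28 in treated hearts. The groups did not overlap, and the difference was 0.36 ± 0.11 with 0.15 at the second probe set. Smarca2, an ATPase of the BAF remodelling complex, gave 0.44 ± 0.15 and 0.34, and Med13l, of the Mediator kinase module, 0.39 ± 0.13 and 0.11. Setd5 gave 0.28 ± 0.09 but -0.34 at a dim probe set, the acetyltransferase Crebbp 0.26 ± 0.11, 0.07 and 0.18, and Kmt2d 0.25 ± 0.11. Splicing factors had 29 of 41 higher (median 0.07 with and without quantile normalization, and 0.03 without control 2, control 3 or atorvastatin 1), among them Celf2 at 0.20 ± 0.08. Of 5 tested probe sets of Celf2, 1 lay lower, at -0.40. By every probe set rather than the brightest, 43 of 70 of the chromatin list and 84 of 147 of the splicing list lay higher, against 43.9% of all tested probe sets.

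Stress and growth pathways were mixed. Of 16 immediate early genes 10 lay higher, but Fos and Egr1 lay lower at -0.55 ± 0.39 and -0.55 ± 0.35, and Nr4a2, an orphan receptor, gave 0.59 ± 0.23, -0.75 and 0.28 over 3 probe sets. Of 17 glucocorticoid-responsive genes 10 lay higher (median 0.06, but -0.0083 without control 3, and 0.01 without control 4 or atorvastatin 4), with the metallothionein Mt2 at 0.42 ± 0.19 and the receptor gene Nr3c1 at 0.22 ± 0.10. For Nr3c1, 1 of 5 tested probe sets lay lower, at -0.04. In the list of statin myopathy, atrophy and autophagy 14 of 24 lay higher (median 0.02, but -0.08 without control 4 and 0.09 without control 2). Its members Cflar, an inhibitor of caspase-8, and Becn1 of autophagy differed by 0.31 ± 0.12 and 0.23 ± 0.11, and the lysosomal proteases Ctsd and Ctsb by -0.21 ± 0.10 and -0.20 ± 0.10. Cflar and Becn1 each had 1 tested probe set on the lower side, at -0.04 and -0.08. Of 26 genes of insulin, mTOR and AMPK signalling 15 lay higher, and 37 of 57 by every probe set. Their median was 0.03 (0.0061 after quantile normalization, -0.02 without atorvastatin 1 and 0.06 without control 2). Against that side, Rptor, the scaffold of mTORC1, had separated groups at -0.29 ± 0.12. In the proteasome 22 of 31 lay lower (median -0.06, -0.05 after quantile normalization, but 0.03 after centring on medians, -0.0023 without atorvastatin 2, -0.0097 without control 2, -0.02 without control 3, and -0.11 and -0.10 without control 1 or atorvastatin 4), and Psmb7, a catalytic subunit, was at 13.49, 13.32, 13.42 and 13.50 in controls and 13.28, 13.23, 13.10 and 13.15 in treated hearts, a small gap with no overlap (-0.24 ± 0.07).

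Of 25 cytosolic ribosomal protein genes 22 lay lower (median -0.09, -0.03 after quantile normalization, 0.0019 after centring on medians, -0.0073 without atorvastatin 1 and -0.17 without atorvastatin 4), Rpl7 by most among those with a small p at -0.24 ± 0.09. In fatty acid and triglyceride synthesis 15 of 22 genes lay lower, and 25 of 38 by every probe set. The median was -0.07 (-0.06 after quantile normalization, 0.02 after centring on medians, -0.02 without atorvastatin 2 and -0.10 without atorvastatin 3). Fads2, a fatty acid desaturase and SREBP target, lay on the other side. It was dim and differed by 0.56 ± 0.23, and by 0.38 at its other tested probe set. Drug transporters and metabolic enzymes had 12 of 15 higher (median 0.08 with and without quantile normalization, 0.04 without control 3), with 0 at an unadjusted p under 0.05. The member farthest from control lay lower, the transporter gene Slco1b2 at -0.87 by its 1 tested probe set. The highest member was at 0.27. The efflux pump gene Abcb1b, which carries statins among other drugs, was at 8.83, 8.40, 8.28 and 8.21 in controls and 8.72, 8.74, 8.69 and 8.64 in treated hearts, 0.27 ± 0.13. Only control 1 lay above the treated hearts. The plot of list medians shows how far these shifts moved with the scaling and with single arrays.

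**Figure D4:**
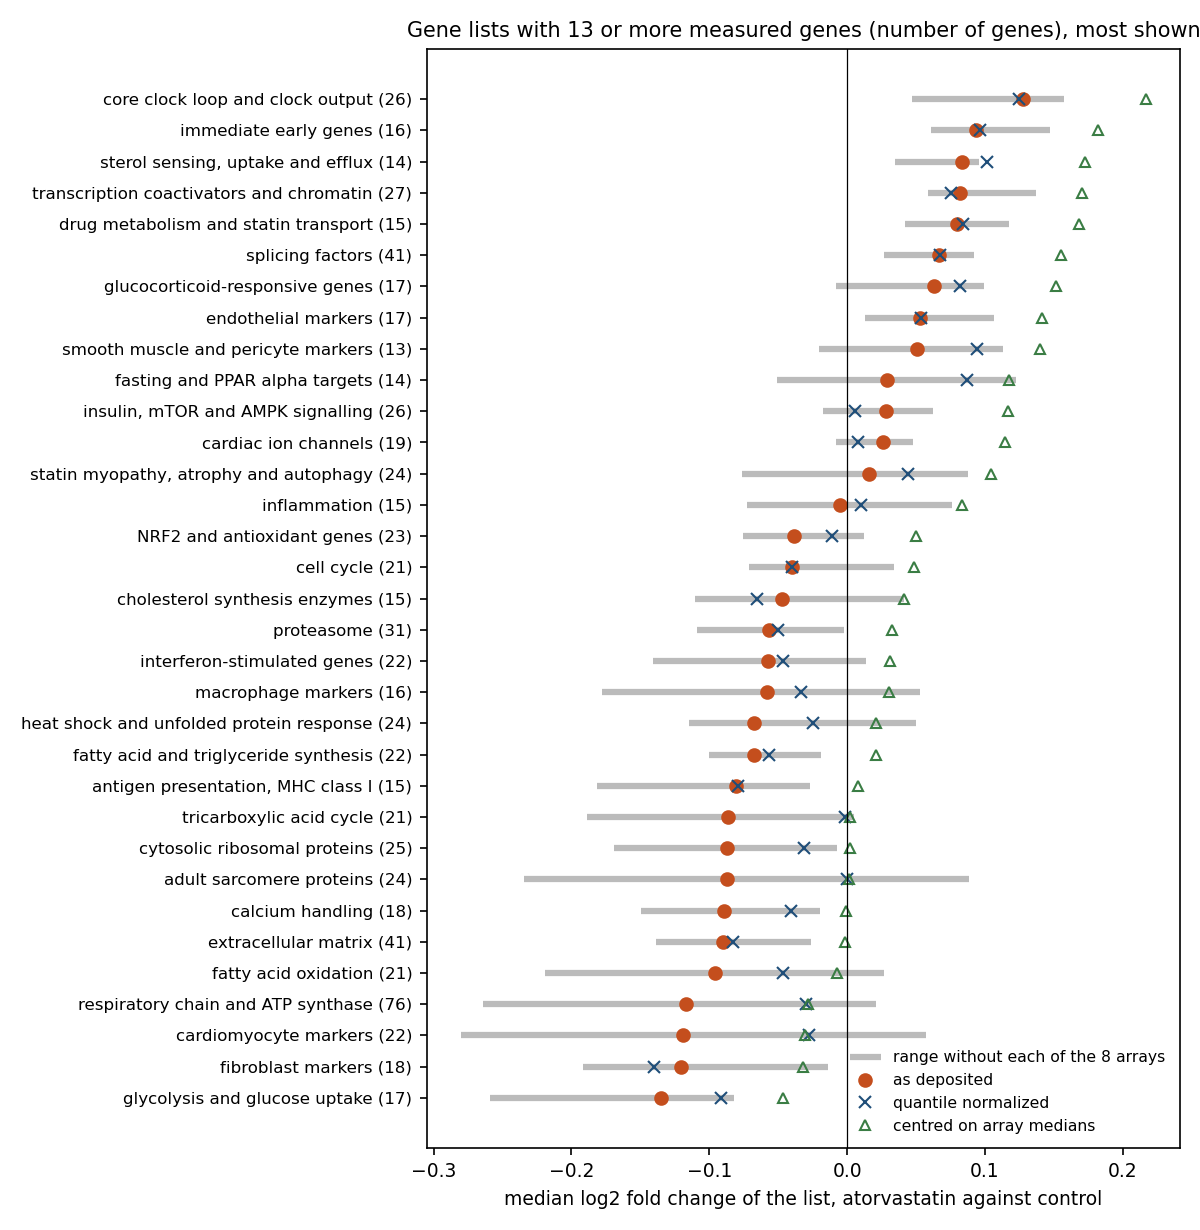
Median log2 fold change (horizontal axis) of most gene lists with at least 13 measured genes, with the values as deposited (circles), after quantile normalization (crosses) and after centring each array on its median (triangles); grey bars span the values without each of the 8 arrays. Of the lists drawn, the combined clock list has the highest median as deposited, at 0.13, and glycolysis the lowest, at -0.14. The longest bars are those of cardiomyocyte markers, adult sarcomere proteins and the respiratory chain, made up mostly of bright genes. Some other lists of bright genes, such as the proteasome and splicing factors, have shorter ones.

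The genes that lay farthest from control were mostly dim. Among the 200 named probe sets with the smallest p, 156 lay higher and 44 lower, and the 12 farthest on each side are described here. Of these 24, 16 were in the dimmer 2 of 5 bins of tested probe sets, and their adjusted p ran from 0.769 to 0.964. Groups did not overlap for 14, against 0.799% of all tested probe sets on the higher and 0.573% on the lower side. The 24 were picked by p and size in these same hearts, so separated groups follow in part from the choice. On the higher side, after Dbp, Urah, an enzyme of urate breakdown, was at 8.13, 8.49, 8.19 and 7.90 in controls and 9.21, 9.11, 8.87 and 8.78 in treated hearts. The groups did not overlap, and the difference was 0.82 ± 0.17, with 0.31 at a dim second probe set. Senp1, a SUMO protease, Bicra, a subunit of a BAF complex, and Fli1, an ETS factor of endothelium, also had separated groups, at 0.78 ± 0.27, 0.83 ± 0.24 and 0.76 ± 0.25. For Fli1 the much brighter probe set gave 0.33. Fmn1, a formin, and Depp1, a FOXO target, gave 0.78 ± 0.24 and 0.77 ± 0.27.

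On the lower side, Fbxo4, an F-box protein, was at 9.14, 9.04, 8.68 and 8.75 in controls and 7.56, 8.51, 8.21 and 7.90 in treated hearts. The treated hearts were spread over a wide range, all below the controls, and the difference was -0.86 ± 0.26. Ebpl, a relative of a sterol isomerase, was at 7.77, 7.39, 7.52 and 7.53 in controls and 7.03, 7.10, 6.94 and 6.51 in treated hearts, -0.66 ± 0.17. Atp23, a mitochondrial protease that helps to assemble ATP synthase, also had separated groups (-0.66 ± 0.19), as did the non-coding A830082K12Rik (-0.82 ± 0.25). The remaining ones were Ext2 of heparan sulphate synthesis (-0.94 ± 0.29), Bicdl1 (-0.67 ± 0.23) and Rom1 (-0.62 ± 0.22), whose groups overlapped.

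For several of these genes other probe sets differed less or lay on the other side. Orc4, of the origin recognition complex, gave -1.01 ± 0.29 at 1 probe set and -0.11, 0.07 and 0.05 at 3 brighter ones. Ube2h, a ubiquitin-conjugating enzyme, gave -0.98 ± 0.35 against 0.16, 0.06 and -0.04. Tm7sf3 gave 1.00 ± 0.34 against 0.0018, 0.30 and -0.37, Cog1, of the Golgi tethering complex, 0.78 ± 0.28 against 0.04, 0.13 and -0.10, and Atp6v0a2, a proton pump subunit, -0.69 ± 0.22 against -0.10 and -0.12. Mgat4a, a glycosyltransferase, gave 0.82 ± 0.17 against 0.11, and Zfp871, whose 3 probe sets all lay higher, 0.77 ± 0.20 against 0.03 and 0.34. Over the whole array, 4766 genes had more than 1 tested probe set. A probe set of 612 of them reached an unadjusted p under 0.05, and for 336 of those all probe sets lay on one side. How often all probe sets of a gene lay on one side whatever their p is not given here. The count is therefore a description only.

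A stricter reading asked for at least 2 probe sets at an unadjusted p under 0.05 and all on one side. It was met by 28 of the 4766 genes with more than 1 tested probe set, 20 higher and 8 lower. They were chosen after their values were seen, and the number that chance would give was not worked out. Cpt1a, Thbs2, Alas1, Slc25a5 and Ctsb, described above, were among them. Nabp1, a single-strand DNA binding protein, lay higher at 6 of 6 probe sets, from 0.14 to 0.45. Its brightest was at 11.28, 11.35, 11.14 and 11.39 in controls and 11.58, 11.51, 11.58 and 11.83 in treated hearts, with no overlap. Klf9, a Krüppel-like factor that glucocorticoids and the clock regulate, lay higher at 5 of 5, from 0.04 at the brightest to 0.43.

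**Figure D5:**
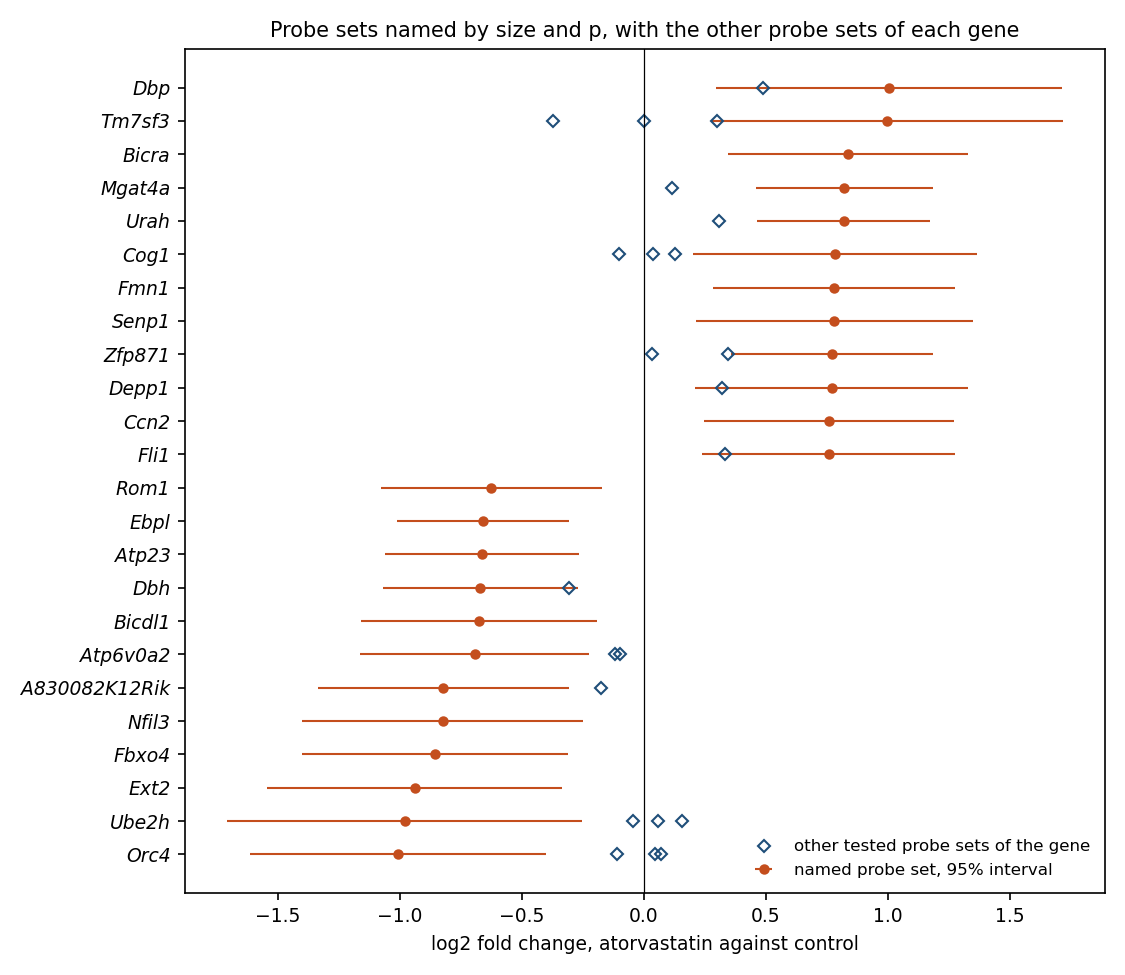
Log2 fold change with its 95% interval (orange) for the 24 probe sets farthest from control among the 200 with the smallest p, and the other tested probe sets of the same genes (open diamonds). Diamonds lie near 0 for Orc4, Ube2h, Cog1, Mgat4a and Atp6v0a2, and on the same side as the named probe set for Dbp, Urah, Depp1, Fli1 and Dbh.

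The count of calls turned on control 1. It was the control with the lowest weight when limma estimated array weights (0.483), and atorvastatin 2 had the lowest of the treated hearts (0.267). Without control 1, 18 probe sets passed correction, 16 higher and 2 lower, among them those of Zfp871, Mgat4a and Ckm named above. In all 18 control 1 lay on the side of the treated hearts from the other 3 controls, so leaving it out widens the gap by construction. Leaving out any other single array of the 8 gave 0. Atorvastatin set against the mean of the other 3 statins, which uses no control, gave 0 calls as well, and the lowest adjusted p was 0.824 (limma). Before adjustment 1304 probe sets (5.79%) had p under 0.05, of which 558 lay on the higher and 746 on the lower side.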

How the data were processed

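Gene expression of 20 left ventricles was deposited as probe set signal intensity, which the authors computed with MAS5, per the submitters' processing notes; its version and scaling target are not given in the sources used here. After the 64 control probe sets were left out, 16 was added to each signal, log2 was taken, and the brighter 50% of probe sets by mean over 20 arrays (signal 81.8) were tested. Gene names came from the platform annotation: 34945 probe sets had 1 symbol, 932 several and 9160 none, and only those with 1 were named.

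The fit used limma 3.58.1 under R 4.3.3 over all 20 arrays, with 1 mean per group and a prior variance that followed the mean signal (15 degrees of freedom from the arrays, 4.23 from the prior). Adjusted p is that of Benjamini and Hochberg over all tested probe sets, called at 0.05. Intervals are 95%. The procedure was tested on simulated data. Replicates are separate mice, and the number of arrays limits the precision. A list counts each gene by its brightest tested probe set, and no list was tested. The genes named are the 12 highest and 12 lowest of the 200 smallest p, up to 5 per list of which a part is described, and a set of sterol, clock and vascular genes; some of these genes and 1 list are not reported here. Hlf, Col6a3, Kmt2d, Thbs2, Alas1, Slc25a5, Nabp1 and Klf9 were named after their values were seen. The members and all 51 lists were chosen with earlier results of these data known. Other scalings, covariates, pseudocounts, filters, array weights, blocks and left-out arrays were tried, as given at the end.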

Additional observations from a re-analysis of the deposited data

Results flagged for a closer look

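In groups of 4 hearts, 1 value that lay far from the other 3 was looked for in 288 groups, and 12 were found; chance gives about 1 in 20. Among array measures, the 25th percentile of signal was 56.7 in atorvastatin 2, against 26.2 in the next heart of its group. In controls, Hmgcs1 was low in control 2 (log2 signal 12.69, nearest 12.90), Hba-a2 low in control 1 (10.87, nearest 11.30), and Nr3c1 and Rock1 high in control 1 (11.52, nearest 11.31, and 13.26, nearest 12.93). In treated hearts, Acta1 was low in atorvastatin 3 (10.93, nearest 11.44) and Med13l high there (11.45, nearest 11.17). Atorvastatin 1 was high for Ggps1 (10.85, nearest 10.57) and Loxl1 (9.98, nearest 9.61). Atorvastatin 4 was high for Ctsb (13.48, nearest 13.18) and Suclg1 (13.65, nearest 13.35) and low for Fos (6.78, nearest 8.11).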

How the results depend on the processing

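In atorvastatin against control, no probe set was called under any setting run other than those without control 1: 18 were called without it, and 18 without control 1 and atorvastatin 2 together, a setting added after seeing the data, as was the share of signal in the brightest 1% as a covariate. Leaving out each array in turn gave 0 to 18 calls, 596 to 2465 probe sets at an unadjusted p under 0.05, 404 to 1325 higher and 192 to 1140 lower. That count was 293 (184 higher, 109 lower) when centred on array medians, 2157 (1214 lower) with the median signal as a covariate, 1716 (762 lower) with no filter, 2443 (1335 and 1108) with array weights, 500 (296 and 204) with only the 8 arrays, 568 (372 and 196) with 1 probe set per gene, 2671 (1595 and 1076) without control 1 and atorvastatin 2, and 580 lower with the brightest share as a covariate. With the replicate block it was 1398 (872 and 526) and 0 were called; the numbers do not pair the mice (correlations of deviations 0.03, -0.54, 0.35 and -0.21). The clock list had a median of 0.22 when centred, and from 0.0472 to 0.1574 without single arrays. Small differences of single probe sets reversed. Centring on medians gave 0.0239 for Cyp51, 0.0591 and 0.0401 for Hmgcs1, 0.0119 for Nr1d1 and 0.0415 for Sqle. Quantile normalization gave -0.0056 for Idi1, 0.0163 for Sqle and -0.0162 for Tm7sf3, the brightest share as a covariate -0.0151 for Idi1 and -0.0088 for Tm7sf3, array weights -0.001 for Hmgcs1, and leaving out control 1 and atorvastatin 2 together 0.0417 for Cyp51 and 0.052 and 0.0493 for Hmgcs1. Without single arrays these probe sets ran from -0.1716 to 0.0335 (Cyp51), -0.0881 to 0.1545, -0.1467 to 0.0332, -0.0803 to 0.0566 and -0.0322 to 0.0893 (4 probe sets of Hmgcs1), -0.096 to 0.2239 (Idi1), -0.2094 to 0.0226 (Nr1d1), -0.1479 to 0.0893 (Sqle) and -0.0708 to 0.0797 (Tm7sf3). The Cyp51, Idi1 and Tm7sf3 values here are those of the probe sets at -0.06, 0.02 and 0.0018. Others that crossed 0 were Insig1 (-0.0671 to 0.1392), Nos3 (-0.2579 to 0.0198), Per1 (-0.0274 to 0.3698) and the brightest Klf9 probe set (-0.0323 to 0.0985). So did the probe sets at -0.10 of Atp6v0a2 (-0.2531 to 0.0281), -0.11 of Orc4 (-0.3373 to 0.1408), -0.20 of Tef (-0.5214 to 0.1028) and 0.03 of Zfp871 (-0.0239 to 0.0975). For Atp6v0a2, Orc4, Tef, Zfp871, Idi1 and Tm7sf3 the probe set with the largest difference kept its side in every setting. Of 3083 values of single probe sets under other settings, 3037 kept their side and call, 42 reversed and 4 passed the threshold. The cause was not tested. Signals near background limit the dim probe sets.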
